A study of Mus musculus with 14 samples.

Results

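The proteasome genes and the genes of ubiquitin-conjugating enzymes were examined in granulosa cells (GCs) of obese and lean mice. The members were chosen by symbol alone, as all protein-coding genes in the count table whose mouse symbol starts with Psma, Psmb, Psmc, Psmd, Psme or Ube2, and the group itself was proposed with earlier results of these counts known. This gave 84 of the 21627 protein-coding genes, 46 with a Psm symbol (called proteasome genes below) and 38 Ube2 genes. Among the former, Psmc3ip and Psme3ip1 encode interacting proteins and not subunits. Each RNA-seq library came from a pool of about 50 GCs of antral follicles, whose polyadenylated RNA was copied into cDNA along its length (Smart-seq2). The study asked how impaired leptin signalling bears on gene expression in these cells. The db/db mice (4 libraries, strain B6.BKS(D)-Leprdb/J) lack the long form of the leptin receptor, and the ob/ob mice (3 libraries, strain B6.Cg-Lepob/J) lack leptin. The controls were lean mice of the same litters, with 4 libraries for the first model (CT db) and 3 for the second (CT ob). All were females of 12 weeks on a chow diet. Both mutations are present in every cell of the mouse, so an effect within GCs and an effect of the obese body cannot be told apart. The control columns of the table are named as heterozygous while the sample labels give wild type, which was not settled. The sources used here do not say how many mice gave each library, so the p-values measure the spread between these libraries.

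Libraries held 3624237 to 4840714 counts in CT db, 2204686 to 3059777 in db/db, 3664219 to 4847166 in CT ob and 5306632 to 8367593 in ob/ob. Levels are given as CPM, counts scaled to a common library total with TMM factors. A level of 3 counts, taken as the detection limit, amounted to 0.369 to 1.30 CPM, and this limit covers counting error only because the reads carry no molecular identifiers. Libraries are named by the numbers in the table, and per-library values follow the order 37, 51, 69 and 75 for CT db, 24, 53, 68 and 81 for db/db, 60, 65 and 68 for CT ob, and 41, 50 and 106 for ob/ob. Each mutant was compared with its own controls in a fit of that model alone. The comparisons between models came from 1 fit of all 14 libraries, in which model, strain and any batch of collection or sequencing cannot be told apart. A gene was called at an edgeR quasi-likelihood adjusted p of 0.05 or less over all genes tested.

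The proteasome is the protease that degrades proteins tagged with ubiquitin. Its 20S core, a stack of alpha and beta rings, holds the cutting sites, and the 19S cap recognises, unfolds and feeds in the tagged protein. Ubiquitin is activated by E1 enzymes, passed to E2 enzymes (the products of most Ube2 genes) and placed on the target with the help of E3 ligases, a route that also drives the cell cycle of dividing GCs.

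A single CT ob library, number 68, stood apart from the other libraries. The 18S ribosomal RNA gene took 24.5% of its counts, against 1.10% to 12.8% in the rest. Its median correlation with the other libraries (log2 counts, across genes) was 0.946, and that of the rest lay between 0.964 and 0.973. The main results that use CT ob are given with and without it. Granulosa markers were plentiful in every library. All 10 were detected, and their summed level was 6124, 7501, 11838 and 8318 CPM in CT db and 6812, 11179.6, 11884 and 7799 CPM in db/db. In the ob model the sum was 5920.2, 5869.9 and 10709 CPM in CT ob and 14232, 10067 and 8305 CPM in ob/ob, with Inha, which encodes the inhibin alpha subunit, holding the most counts. Macrophage and leukocyte markers (7 genes, Lyz2 with the most counts) summed to at most 25.2 CPM in any library and endothelial markers (5 genes, Egfl7 with the most) to 26.4, 35.1 and 22.8 CPM in CT ob and at most 13.5 CPM in the other groups. Theca markers (6 genes, Cyp11a1 with the most) summed to 12.2 to 504 CPM, and luteal markers (5 genes, Hsd3b1 with the most) to 204 to 1320.0 CPM, with library 68 of CT ob the highest. The part of these cells in the results was not tested.

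Of the 46 proteasome genes, 44 passed the filter on low counts in each fit, and of the 38 Ube2 genes 32 did. Psmb11, the beta subunit of the thymus proteasome, reached at most 2 counts in any library, and Ube2dnl1 and Ube2dnl2 had 0 counts in all 14 libraries, which allows levels up to the limits above. The other members that did not pass were Psme2b, Ube2d2b, Ube2ql1, Ube2srt and Ube2v1, with at most 13 counts in a library. Ube2v1, a partner of Ube2n in making lysine 63 chains and the lowest Ube2 gene per kb above the limit (0.168 CPM per kb), had 1 to 6 counts. Other annotated genes overlap 45.4% of its exon bases, among them Gm20431, so its reads may have been assigned elsewhere. The strand, overlap and multiple-mapping settings of the counting are not given in the sources used here, so levels of close relatives such as Ube2d1, Ube2d2a and Ube2d3 are uncertain too. Exon overlap also reached 46.8% in Psmb7 (with Nek6), 41.2% in Psmd13 (with Cox8b and Sirt3) and 39.6% in Psme1 (with Emc9), whose levels are uncertain for this reason.

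The summed level of the proteasome genes was 9138, 8646, 8864 and 8293 CPM in CT db and 8293, 9365, 8993 and 8595 CPM in db/db. In the ob model the sum was 8159.6, 8514 and 9921 CPM in CT ob and 9024, 9413 and 8657 CPM in ob/ob, and the ranges of all 4 groups overlapped. The Ube2 genes summed to 3290.1, 3562, 3392 and 3483 CPM in CT db and 3375, 3014, 3010.5 and 3279 CPM in db/db. They summed to 2865, 2698 and 2538 CPM in CT ob and 2705, 2868 and 3109 CPM in ob/ob. All CT ob libraries lay below all CT db libraries in the Ube2 sum, while mutants and controls overlapped within each model. Among the 44 tested proteasome genes the median coefficient of variation over the 14 libraries was 16.4%, and it was 23.1% among the 32 tested Ube2 genes and 27.3% among all 12586 genes tested.

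**Figure D1:**
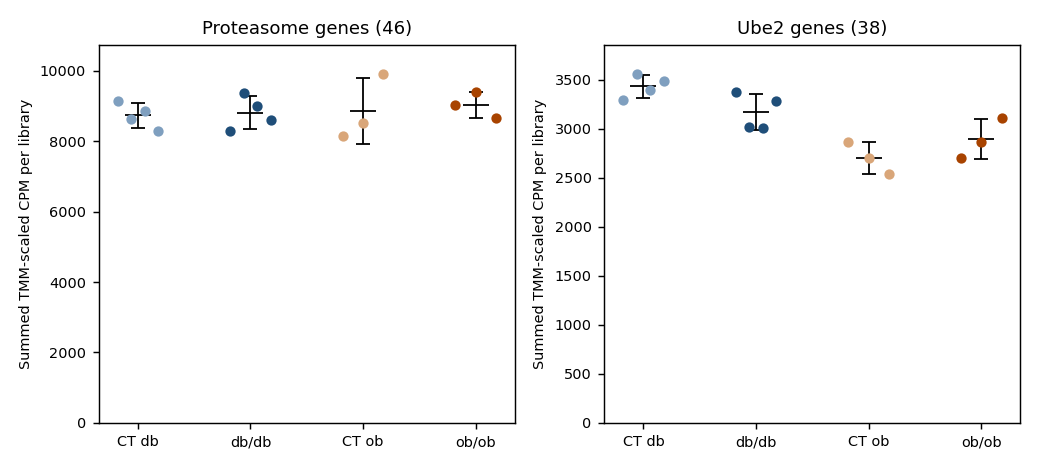
Summed TMM-scaled CPM of the 46 proteasome genes (left) and the 38 Ube2 genes (right) in each library, by group. Points are libraries and bars the mean ± SD. The proteasome sums of the 4 groups overlap, and the Ube2 sums of CT ob, 2538 to 2865 CPM, lie below those of CT db.

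Levels between genes were compared per kb of exon, as the mean of the 4 group means. The 20S alpha ring subunits, which form the gate of the core, had a median of 104 CPM per kb, and Psma2 was the highest of the detected proteasome genes at 167. The constitutive beta ring had a median of 36.7 CPM per kb, with Psmb6 at 125, Psmb5 at 33.4 and Psmb7 at 20.1, the 3 subunits that carry the cutting sites. Their interferon-inducible replacements were far lower per kb, at 1.89 for Psmb8, 2.42 for Psmb9 and 7.42 for Psmb10. In the 19S cap the ATPases, which unfold the substrate, had a median of 54.9 CPM per kb and the other subunits 37.3. The assembly chaperones of the cap, which are not part of the finished particle, had a median of 11.2. Psma8, the alpha subunit of the testis proteasome, was the lowest of the proteasome genes that passed the filter, at 0.672 CPM per kb, while its somatic counterpart Psma7 stood at 97.4. Psme1, Psme2 and Psme3, which encode 11S activators, stood at 18.1, 39.6 and 20.04, and Psme4, another activator, at 12.3.

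Among the Ube2 genes Ube2c, the E2 of the anaphase-promoting complex, was the highest at 110.0 CPM per kb. Its partner Ube2s, which extends the chains that Ube2c starts, stood at 7.59, and Ube2t, the E2 of the Fanconi anaemia pathway, at 5.33. Of the proliferation markers all 10 were detected, Top2a with the most counts, and they had a summed level of 2128 to 3387 CPM over the libraries. Ube2d3, an E2 used by many ligases, had 23.6 CPM per kb, Ube2n (lysine 63 chains) 16.1, and Ube2l6 (the E2 for ISG15) 2.07. Exon length here is the union of all annotated exons, and the annotation adds long rare transcripts to some genes. With the longest transcript as the length, the median over tested genes, averaged over libraries, was 56.9 CPM per kb for proteasome genes in place of 35.1, and 13.2 for Ube2 genes in place of 8.59.

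The first comparison, db/db against CT db, asks what loss of the long leptin receptor goes with. With edgeR 0 of 44 proteasome genes and 0 of 32 Ube2 genes were called, where 0.00884% of all genes were. At an unadjusted p under 0.05 there were 2 proteasome genes and 5 Ube2 genes, beside 7.59% of all genes. DESeq2 called 1 proteasome gene and 1 Ube2 gene, beside 0.389% of all genes. The groups did not overlap in 3 proteasome genes and 5 Ube2 genes, beside 4.13% of all genes. The median log2 fold change was 0.030 for proteasome genes and -0.082 for Ube2 genes, with 0.010 over all genes tested. Leaving out single libraries moved the proteasome median from 0.0043 without CT db library 75 to 0.069 without CT db library 37. The proteasome median was 0.0052 without CT db library 51, 0.012 without db/db library 53 and 0.016 without db/db library 68. The Ube2 median was -0.046 without CT db library 37. Library totals in place of TMM gave 0.10 and -0.015, with 0.075 over all genes. The 6 ATPases lay between -0.047 and 0.058, and the 7 constitutive beta subunits between -0.11 and 0.10.

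Psmd14 (ENSMUSG00000026914, chr2:61542026-61631607, GRCm39 here and for the members that follow) encodes the cap's deubiquitinase, which removes ubiquitin from proteins as they enter. It measured 368, 416, 442 and 384 CPM in CT db and 306, 278, 278 and 284 CPM in db/db. All db/db libraries lay below all CT db libraries. The log2 difference was -0.49 ± 0.123 (SE, adjusted p = 0.394 by edgeR), and DESeq2 gave an adjusted p of 0.0233. Psma2 had the opposite estimate, with 751, 679.7, 715 and 694 CPM in CT db and 809.9, 1031, 934 and 787 CPM in db/db, and again the groups did not overlap. It stood at 0.32 ± 0.135 (SE, adjusted p = 0.632 by edgeR) on the log2 scale. Psma3, another alpha ring subunit, had the next smallest p among proteasome genes, with a log2 difference of -0.25 ± 0.132 (SE, adjusted p = 0.681 by edgeR) and overlapping groups. Psmb10, an inducible beta subunit, also had all db/db libraries above all CT db libraries, with 8.73, 6.60, 9.62 and 9.28 CPM in CT db and 10.7, 11.2, 11.3 and 13.1 CPM in db/db, and a log2 difference of 0.44 ± 0.240 (SE, adjusted p = 0.704 by edgeR). The 19S ubiquitin receptor Psmd4 had a log2 difference of 0.11 here and -0.21 in ob/ob against CT ob. For the cutting subunits Psmb5, Psmb6 and Psmb7 it was -0.058, 0.054 and -0.11 here, and -0.071, -0.30 and -0.13 in ob/ob against CT ob. With CT ob library 68 left out the latter were 0.13, 0.10 and -0.023, and 0.080 for Psmd4. None of these 4 genes had an edgeR adjusted p under 0.792 in either model.

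Ube2u, an E2 gene of which little is established, had the smallest p among the members. It had 21, 61, 14 and 13 counts in CT db and 2, 5, 1 and 2 counts in db/db, or 5.91, 12.99, 3.85 and 3.55 CPM in CT db and 0.853, 2.15, 0.433 and 0.625 CPM in db/db. The groups did not overlap, all db/db libraries but number 53 held 3 counts or fewer, and library 51 of CT db held the most. In the fit of this model Ube2u passed the filter on low counts through the CT db libraries alone, the group where it was high. Its small p and the lack of overlap are partly set by that selection. The log2 difference was -2.71 ± 0.616 (SE, adjusted p = 0.363 by edgeR), while DESeq2 gave an adjusted p of 0.0397. Ube2u (ENSMUSG00000069733, chr4:100335993-100407344) lies 1.17 Mb from Lepr, the gene mutated in db/db. A mutant strain carries its own sequence around the mutated gene, and an effect of the receptor and of that linked segment cannot be told apart. In the ob model, where Lepr is not the mutated gene, Ube2u measured 3.26, 2.49 and 3.06 CPM in CT ob and 6.37, 6.40 and 4.14 CPM in ob/ob, with all ob/ob libraries above all CT ob libraries and a log2 difference of 0.93 ± 0.420 (SE, adjusted p = 0.616 by edgeR), or 0.96 without CT ob library 68.

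Ube2q2, an E2 with a long N-terminal region, measured 77.1, 106, 78.9 and 90.6 CPM in CT db and 71.6, 46.5, 36.8 and 55.3 CPM in db/db. The db/db libraries lay below the CT db libraries, and the log2 difference was -0.75 ± 0.200 (SE, adjusted p = 0.413 by edgeR). Ube2o, a large enzyme that acts as both E2 and E3, measured 32.1, 35.4, 37.9 and 40.4 CPM in CT db and 50.3, 78.7, 57.6 and 41.6 CPM in db/db, with all db/db libraries higher. Its log2 difference was 0.64 ± 0.195 (SE, adjusted p = 0.526 by edgeR). Ube2a, a RAD6 homologue, measured 105, 95.4, 98.1 and 103 CPM in CT db and 94.6, 84.3, 85.3 and 84.4 CPM in db/db, and all db/db libraries were lower, at -0.21 ± 0.118 (SE, adjusted p = 0.706 by edgeR) on the log2 scale. The cell cycle enzymes Ube2c, Ube2s and Ube2t had log2 fold changes of 0.011, 0.33 and -0.28, and their groups overlapped.

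In ob/ob against CT ob, which sets loss of leptin itself against its controls, edgeR called 0 of 44 proteasome genes and 0 of 32 Ube2 genes, where 0% of all genes were called. At an unadjusted p under 0.05 there were 2 proteasome genes and 3 Ube2 genes, beside 8.16% of all genes, and DESeq2 called 0 and 0, beside 0.692%. The groups did not overlap in 7 proteasome genes and 5 Ube2 genes, beside 15.7% of all genes. The median log2 fold change was -0.13 for proteasome genes and -0.028 for Ube2 genes, with -0.036 over all genes. Without CT ob library 68 these medians were 0.022 and 0.059, with -0.0054 over all genes, so the sign of the proteasome median rested on that library. The Ube2 median was also above 0 without CT ob library 60 (0.017), without ob/ob library 41 (0.050), with library totals in place of TMM (0.027) and with no filter on low counts (0.034). The proteasome median was -0.026 with library totals, -0.047 with no filter on low counts and -0.066 without ob/ob library 106. The log2 differences of the 7 constitutive beta subunits ran from -0.35 to -0.019, and without library 68 from -0.023 to 0.22. Those of the 8 alpha subunits ran from -0.13 to 0.50, and from -0.10 to 0.58 without it.

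Psma3 measured 326, 373 and 294 CPM in CT ob and 449, 465 and 499 CPM in ob/ob, and Psma2 567, 639 and 710.1 CPM in CT ob and 1034, 874 and 803 CPM in ob/ob. In both, all ob/ob libraries lay above all CT ob libraries. The log2 differences were 0.50 ± 0.182 (SE, adjusted p = 0.568 by edgeR) for Psma3 and 0.49 ± 0.199 (SE, adjusted p = 0.606 by edgeR) for Psma2. Psmc6, an ATPase of the cap, was next, with 327, 352 and 230.1 CPM in CT ob and 376, 424 and 427 CPM in ob/ob and a log2 difference of 0.43 ± 0.210 (SE, adjusted p = 0.647 by edgeR). Library 68 of CT ob was the lowest of the 14 libraries in Psmc6 and in Psma3. Without it the log2 differences were 0.43 for Psma3, 0.58 for Psma2 and 0.27 for Psmc6. Ube2d3 measured 515, 517 and 253 CPM in CT ob and 607, 668 and 803 CPM in ob/ob, and again library 68 was the lowest. It stood at 0.69 ± 0.293 (SE, adjusted p = 0.611 by edgeR) on the log2 scale, and at 0.42 without that library. Ube2e2, a relative of the Ube2d enzymes, had a log2 difference of 0.65 ± 0.267 (SE, adjusted p = 0.608 by edgeR), with all 3 ob/ob libraries above CT ob. Ube2l3, an E2 for HECT and RBR ligases, had -0.39 ± 0.168 (SE, adjusted p = 0.611 by edgeR), with all 3 ob/ob libraries below CT ob. Without library 68 these were 0.63 for Ube2e2 and -0.37 for Ube2l3. Ube2h (ENSMUSG00000039159, chr6:30211288-30304564), whose enzyme works with the CTLH ligase, lies 1.14 Mb from Lep, the gene mutated in ob/ob. It measured 37.2, 32.9 and 61.9 CPM in CT ob and 66.3, 32.4 and 58.7 CPM in ob/ob, with overlapping groups and a log2 difference of 0.25 ± 0.339 (SE, adjusted p = 0.856 by edgeR), or 0.58 without library 68.

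The lean controls of the models were compared in the fit of all libraries. In CT ob against CT db edgeR called 4 of 44 proteasome genes and 5 of 32 Ube2 genes, 9.09% and 15.6%, where 6.63% of all genes were called. Psmb10, Psmd9 and Ube2l3 were higher in CT ob, where 2.24% of all genes were called higher. Psma3, Psmd14, Ube2a, Ube2b, Ube2d3 and Ube2q2 were lower, where 4.39% of all genes were. At an unadjusted p under 0.05 there were 14 proteasome and 11 Ube2 genes, beside 26.9% of all genes, and DESeq2 called 10 and 9, beside 12.4%. The groups did not overlap in 12 proteasome genes (8 higher in CT ob) and 11 Ube2 genes (1 higher), beside 21.2% of all genes. The share of proteasome genes called was near that of all genes.

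These calls changed when single libraries were left out. Without CT ob library 68, edgeR called 0 proteasome and 0 Ube2 genes (12 and 12 at an unadjusted p under 0.05) and 112 genes in all. Without CT db library 51 it also called 0 and 0 (12 and 11 at an unadjusted p under 0.05), and 138 in all. Without CT db library 75 the calls were Psma3, Psmd14 and Ube2q2, beside 1.61% of all genes. Without CT db library 69 they were Psma3, Psmb10, Psmd14, Ube2d3 and Ube2q2, and without CT ob library 60 the same genes and Ube2w. Of all genes 3.82% were called without CT db library 69 and 2.90% without CT ob library 60. Without CT ob library 65, Psmd9, Ube2a and Ube2b were no longer called, and Psmc6, Psme1, Psme3ip1 and Ube2e2 were, giving 6 proteasome and 4 Ube2 genes. Of all genes 6.41% were called in that fit. Without CT db library 37 all 9 were called, with Psmd2 and Ube2e2 added, beside 9.46% of all genes. The genes gained are named from their values. In an edgeR fit of the control groups alone 0 members were called, with 11 proteasome and 10 Ube2 genes at an unadjusted p under 0.05 and 3 genes called in all. The DESeq2 counts above come from all libraries, and DESeq2 was not run without single libraries. The sign of each called member stayed the same in all 17 alternative settings. The median log2 fold change of the proteasome genes was 0.15, with 33 of 44 above 0, and 0.020 without library 68, with 23 above 0. The median of the Ube2 genes was -0.062, and -0.28 without library 68 and -0.16 without CT ob library 60. With upper quartile scaling the Ube2 median was -0.016, with 16 of 32 above 0. Over all genes the median was 0.056, and 0.00061 without library 68.

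Other measures also differed between the controls. Mitochondrial genes took 5.73, 9.70, 6.93 and 8.59% of counts in CT db and 4.47, 4.86 and 3.25% in CT ob, without overlap. They took 5.72, 5.36, 6.50 and 6.22% in db/db, overlapping CT db, and 6.88, 5.995 and 5.42% in ob/ob, all above CT ob. The endothelial sums given above were higher in every CT ob library than in every CT db library, and of the 3 endothelial markers tested edgeR called 0, with 2 at an unadjusted p under 0.05 and 1 called by DESeq2. With CT ob library 68 left out edgeR called 1 of 4 tested, Kdr, an endothelial growth factor receptor named from its values, at a log2 difference of 3.77 (adjusted p = 0.0359). Kdr was not among the 3 tested with all libraries. The filter asks for counts in as many libraries as the smallest group holds. Without library 68 that group was CT ob, where Kdr was high, with 2 libraries. The call therefore follows a change of filter and is no separate support for an endothelial difference. All 10 oocyte markers were estimated higher in CT ob, with a median log2 difference of 2.06, 6 at an unadjusted p under 0.05, 0 called by edgeR or DESeq2, and overlapping groups in each. Their median was 2.54 without library 68, with 7 at an unadjusted p under 0.05 and 0 called by edgeR. Of the 10 granulosa markers edgeR called 1 (Fshr, lower in CT ob) and DESeq2 3, with 5 at an unadjusted p under 0.05 and a median log2 difference of -0.10. Without library 68 edgeR called 0 of them, with 4 at that level and a median of -0.69. Of the 10 proliferation markers 0 were called by edgeR or DESeq2, with 5 at an unadjusted p under 0.05 and a median of -0.00047. These became 2 and 0.12 without library 68, again with 0 called by edgeR. For comparison, between the controls edgeR called 6.63% of all genes and DESeq2 12.4%, and 26.9% had an unadjusted p under 0.05. Without library 68 edgeR called 0.850% of all genes, and 20.3% had an unadjusted p under 0.05. The part of the mitochondrial share and of these cells in the control differences was not tested. In ob/ob against CT ob edgeR and DESeq2 called 0 granulosa markers, beside 0% and 0.692% of all genes. At an unadjusted p under 0.05 there were 4, beside 8.16% of all genes, and the median was 0.48. Without library 68 there were 6 at that level, beside 7.88% of all genes, 0 called by edgeR, and a median of 1.03.

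**Figure D2:**
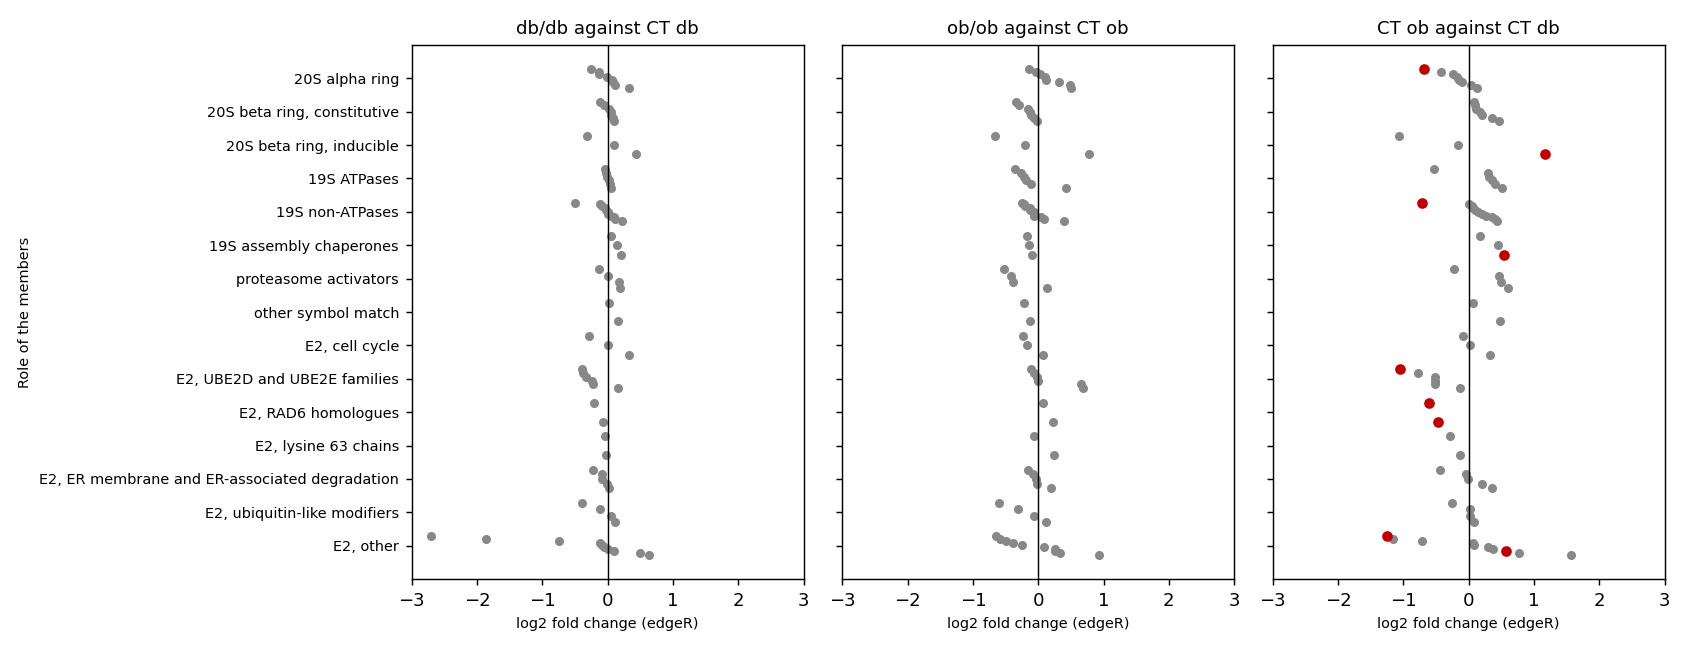
Log2 fold change from edgeR (horizontal axis) of every tested member by role (vertical axis) in db/db against CT db, ob/ob against CT ob and CT ob against CT db. Each point is a gene, and red points had an adjusted p of 0.05 or less. Red points appear between the controls alone, for 4 proteasome genes and 5 Ube2 genes. Without CT ob library 68 or CT db library 51 edgeR called 0 of them.

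Psma3 (ENSMUSG00000060073, chr12:71021279-71043849) measured 518, 613, 472 and 541 CPM in CT db and 326, 373 and 294 CPM in CT ob, and all CT ob libraries were lower. The log2 difference was -0.69 ± 0.140 (SE, adjusted p = 0.0163 by edgeR). Psmd14 measured 368, 416, 442 and 384 CPM in CT db and 285, 257 and 190.0 CPM in CT ob, with library 68 the lowest and no overlap. Its log2 difference was -0.72 ± 0.150 (SE, adjusted p = 0.0179 by edgeR). Psmb10 (ENSMUSG00000031897, chr8:106662362-106665077), the inducible counterpart of Psmb7, measured 8.73, 6.60, 9.62 and 9.28 CPM in CT db and 17.2, 13.5 and 26.9 CPM in CT ob, or 1.16 ± 0.268 (SE, adjusted p = 0.0253 by edgeR) as a log2 difference. All CT ob libraries lay above CT db in Psmb10, and library 68 was the highest. Of the 3 tested inducible subunits, 2 had estimates below 0 without a call, the lowest at -1.07. Without library 68 the log2 difference was -0.34 for Psmb8 and -0.81 for Psmb9. Psmd9 (ENSMUSG00000029440, chr5:123307476-123388656), an assembly chaperone of the cap, had 38.6, 28.8, 36.5 and 30.03 CPM in CT db and 47.5, 45.8 and 51.7 CPM in CT ob, again without overlap. Its log2 difference of 0.53 ± 0.153 (SE, adjusted p = 0.0498 by edgeR) was close to the threshold. Of 17 alternative settings, the call of Psmd9 was lost in 11, and those of Psma3, Psmb10 and Psmd14 in 4 each. Without library 68 of CT ob the log2 differences were -0.63 for Psma3, -0.58 for Psmd14, 0.84 for Psmb10 and 0.47 for Psmd9, all of them without a call.

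Ube2d3 (ENSMUSG00000078578, chr3:135142743-135176674) measured 792, 1002, 840.2 and 945 CPM in CT db and 515, 517 and 253 CPM in CT ob, with all CT ob libraries lower and library 68 far below the rest. The log2 difference came to -1.06 ± 0.229 (SE, adjusted p = 0.0200 by edgeR). Of the 6 tested Ube2d and Ube2e genes, 5 had all CT ob libraries below all CT db libraries, beside 11.4% of all genes, and 1 was called, beside 4.39% of all genes called lower. Ube2a and Ube2b, which encode the RAD6 homologues that mark histone H2B and act at damaged DNA, were called together. Ube2a (ENSMUSG00000016308, chrX:36064828-36150335) measured 105, 95.4, 98.1 and 103 CPM in CT db and 72.4, 67.8 and 77.2 CPM in CT ob, or -0.47 ± 0.122 (SE, adjusted p = 0.0374 by edgeR) on the log2 scale. Ube2b (ENSMUSG00000020390, chr11:51873788-51895244) measured 225, 223, 229 and 273 CPM in CT db and 163, 155 and 148 CPM in CT ob, or -0.61 ± 0.159 (SE, adjusted p = 0.0375 by edgeR) on the log2 scale. In neither did the groups overlap. Ube2q2 (ENSMUSG00000032307, chr9:55056137-55114815) measured 77.1, 106, 78.9 and 90.6 CPM in CT db and 36.03, 41.9 and 32.6 CPM in CT ob, and all CT ob libraries were lower, with a log2 difference of -1.25 ± 0.255 (SE, adjusted p = 0.0164 by edgeR). Ube2l3 (ENSMUSG00000038965, chr16:16969877-17020513), the single Ube2 gene called higher in CT ob, measured 103, 78.8, 90.4 and 73.98 CPM in CT db and 133, 121 and 132 CPM in CT ob without overlap, and its log2 difference was 0.57 ± 0.146 (SE, adjusted p = 0.0342 by edgeR). Of the same settings, the call was lost in 11 for Ube2b, 10 for Ube2a, 8 for Ube2l3, 5 for Ube2d3 and 3 for Ube2q2. Without library 68 the log2 differences were -0.81 for Ube2d3, -0.53 for Ube2a, -0.59 for Ube2b, -1.19 for Ube2q2 and 0.54 for Ube2l3, again without a call. The 5 tested E2 genes of the endoplasmic reticulum, which serve degradation of its proteins, had log2 differences from -0.44 to 0.36 between controls, and the 3 cell cycle enzymes from -0.086 to 0.33. Without library 68 these ranges were -0.19 to 0.35 and -0.074 to 0.53. In all 8 genes of these sets the control groups overlapped. With the 18S gene left out of the counts, an alternative chosen after seeing the data, edgeR called the same 4 proteasome and 5 Ube2 genes and 826 of 12610 genes in all, with medians of 0.15 and -0.063 on the log2 scale.

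**Figure D3:**
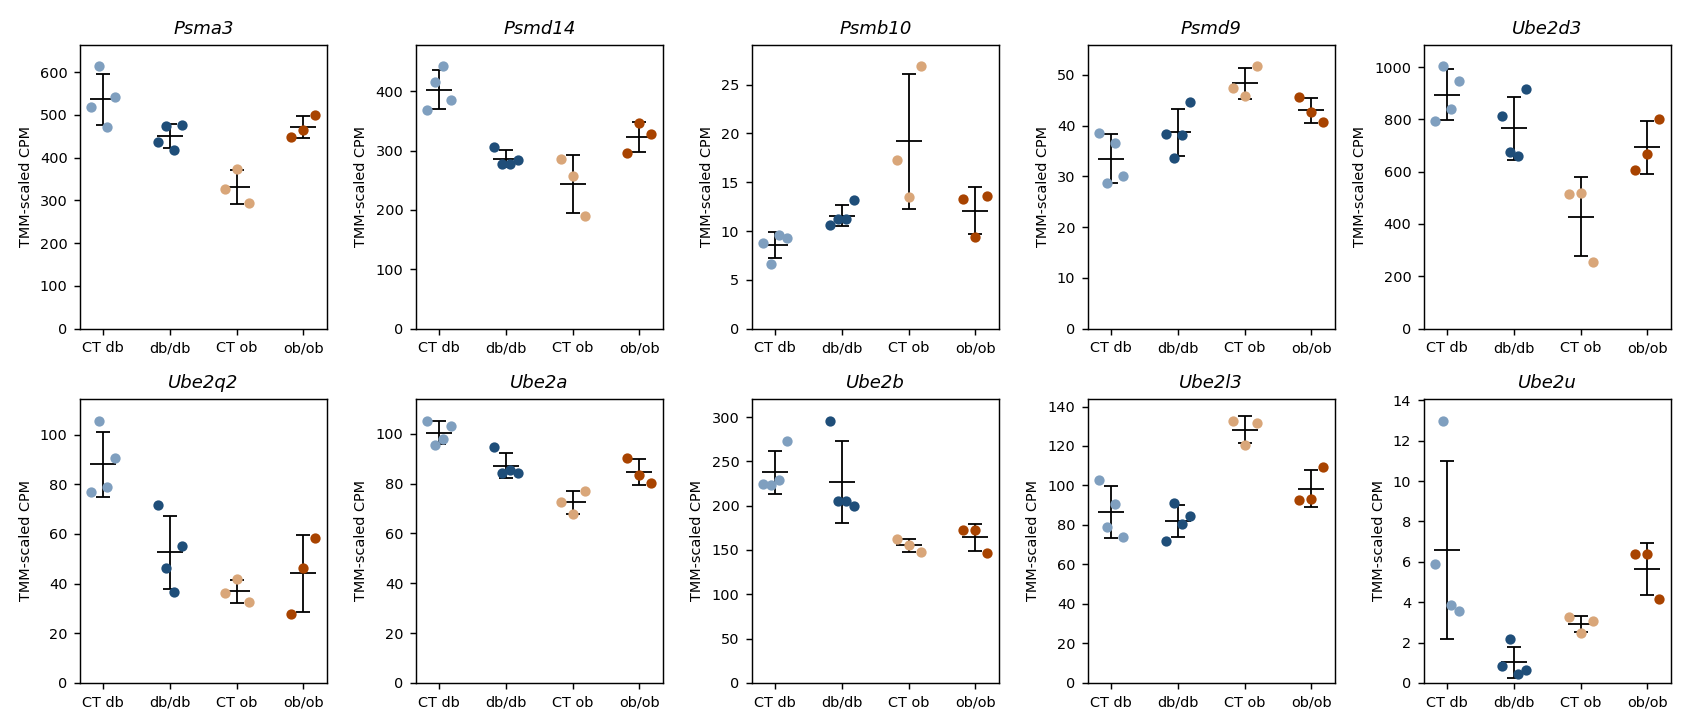
TMM-scaled CPM (vertical axis) of the 9 members called between the control groups and of Ube2u, by group. Points are libraries and bars the mean ± SD. Ube2u reached at most 2.15 CPM in db/db and at least 3.55 CPM in CT db.

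Between the mutants, ob/ob against db/db, edgeR called 0 of 44 proteasome and 0 of 32 Ube2 genes, where 0.0159% of all genes were called. At an unadjusted p under 0.05 there were 0 and 3, beside 8.18% of all genes, and DESeq2 called 0 and 1, beside 0.572%. The groups did not overlap in 2 proteasome and 5 Ube2 genes, beside 9.91% of all genes. The medians were 0.036 and -0.15 on the log2 scale, and the Ube2 median was -0.062 without db/db library 81. The proteasome median was -0.0092 without ob/ob library 50 and 0.00059 without db/db library 24, and leaving out single libraries took it no higher than 0.076. It was 0.062 with upper quartile scaling and 0.091 with no filter on low counts. Psmd3, Psmc3 and Psme3ip1 had the smallest p among proteasome genes, with log2 differences of 0.27, 0.20 and 0.24 and edgeR adjusted p-values of 0.664, 0.831 and 0.778. The ob/ob libraries all lay above db/db in Psmd3, a cap subunit, and in Psme3ip1, which encodes a partner of the activator Psme3, but not in Psmc3, an ATPase of the cap. Ube2u was higher in all 3 ob/ob libraries, with a log2 difference of 2.47 ± 0.577 (SE, adjusted p = 0.322 by edgeR), and Ube2b lower in all 3, with -0.46 ± 0.158 (SE, adjusted p = 0.397 by edgeR).

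Ube2q2l, a relative of Ube2q2, varied more between libraries than any other tested member. It measured 0.563, 33.7, 16.5 and 0.273 CPM in CT db and 0, 6.88, 6.49 and 1.25 CPM in db/db. In the ob model it measured 95.2, 13.2 and 5.10 CPM in CT ob and 13.7, 18.96 and 64.4 CPM in ob/ob. The ob/ob libraries all lay above db/db, while mutants and controls overlapped in each model. On the log2 scale the mutants differed by 3.18 ± 1.27 (SE, adjusted p = 0.497 by edgeR). Oocyte markers varied alongside. All 10 were detected, Gdf9 with the most counts, and their summed level was 3.94, 262, 155 and 18.8 CPM in CT db and 6.82, 51.2, 67.98 and 8.44 CPM in db/db. The sum was 1126, 291 and 73.1 CPM in CT ob and 219.6, 149 and 755 CPM in ob/ob. All 10 markers lay higher in every ob/ob than in every db/db library, beside 9.91% of all genes without overlap in either direction. EdgeR called 0 and DESeq2 1, beside 0.0159% and 0.572% of all genes, and 10 had an unadjusted p under 0.05, beside 8.18%. In the fit of the db model alone 5 of 10 passed the filter on low counts, so low counts in db/db limit this comparison. In CT db, libraries 51 and 69 had the higher values of both Ube2q2l and the markers, and in the ob model libraries 60 and 106 did. The part of oocyte RNA in the level of Ube2q2l was not tested, and more cells of a type and more RNA per cell cannot be told apart.

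The difference of the mutant effects, that of ob/ob less that of db/db, was tested as an interaction. With edgeR 0 proteasome and 0 Ube2 genes were called, beside 0% of all genes. There were 4 and 4 at an unadjusted p under 0.05, beside 8.11% of all genes, and DESeq2 called 2 and 1, beside 0.572%. On the log2 scale Ube2u had the estimate 3.63 ± 0.781 (SE, adjusted p = 0.189 by edgeR), and its DESeq2 adjusted p was 0.0152. Psmd14 stood at 0.89 ± 0.210 (SE, adjusted p = 0.253 by edgeR) and Psma3 at 0.76 ± 0.195 (SE, adjusted p = 0.276 by edgeR). DESeq2 called both, with adjusted p-values of 0.00904 for Psmd14 and 0.0152 for Psma3. Psmd14 was lower in every db/db library than in CT db and higher in every ob/ob library than in CT ob. Without CT ob library 68 the estimates were 3.69, 0.76 and 0.70 for Ube2u, Psmd14 and Psma3. Psmb10, Ube2d3 and Ube2q2 followed, with -1.10, 0.91 and 0.998 on the log2 scale and edgeR adjusted p-values of 0.508, 0.502 and 0.517. Without library 68 these estimates were -0.77, 0.67 and 0.95. The median was -0.14 for proteasome genes, and 0.020 without CT ob library 68, while over all genes it was -0.037 and 0.020. For Ube2 genes it was 0.059. Leaving out single libraries gave Ube2 medians from 0.0083 without CT db library 37 to 0.16 without db/db library 24, with 0.14 without CT ob library 60, 0.13 without library 68 and 0.13 without ob/ob library 41.

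The inducible subunits Psmb8 and Psmb9 and the E2 Ube2l6 are induced by interferon. Psmb8 measured 5.91, 2.77, 14.8 and 6.55 CPM in CT db and 5.12, 5.59, 5.20 and 7.81 CPM in db/db, and Psmb9 5.91, 3.41, 21.2 and 13.6 CPM in CT db and 10.7, 14.2, 9.96 and 11.9 CPM in db/db. Library 69 of CT db was the highest in both. Ube2l6 measured 3.10, 2.77, 13.2 and 6.82 CPM in CT db and 6.39, 3.44, 4.33 and 5.31 CPM in db/db, again with library 69 the highest. The interferon and antigen presentation list of 9 genes outside the members, with B2m holding the most counts, summed to 342, 424, 1538 and 1254 CPM in CT db and 627, 838, 768 and 1287 CPM in db/db, and library 69 was the highest there too. In the ob model the log2 differences were -0.20 for Psmb8, 0.78 for Psmb9 and -0.32 for Ube2l6, all with overlapping groups, and -0.023, 0.50 and 0.042 without CT ob library 68. The list of 9 genes summed to 350.1, 362 and 435 CPM in CT ob and 728, 465 and 480.1 CPM in ob/ob, without overlap. The genes of the list did not share a direction. Their estimates were above 0 in 4 and below 0 in 5, with a median log2 difference of -0.081. Without library 68, 6 of 9 were above 0, with a median of 0.55. An unadjusted p under 0.05 was reached by 3 (2 higher and 1 lower in ob/ob), beside 8.16% of all genes. EdgeR called 0 and DESeq2 1, beside 0% and 0.692%. The part of these 9 genes in the levels of the inducible subunits was not tested. Psme1 and Psme2, which encode the interferon-inducible 11S activator, measured 111, 85.7 and 190.4 CPM and 88.5, 79.2 and 175 CPM in CT ob, and library 68 was the highest of all libraries in both.

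Other genes of the pathway came from lists of names. Of 20 proteasome partners whose symbols fall outside the rule, 12 ubiquitin and E1 genes and 24 subunits of SCF and APC/C ligases, all were tested. In the db model edgeR called 0 in each list, with 1, 1 and 2 at an unadjusted p under 0.05 and 0 by DESeq2. In the ob model it called 0 as well, with 0, 1 and 2 at that level and 0 by DESeq2. Between the controls 1, 2 and 2 were called lower in CT ob and 0 higher (by DESeq2 1, 4 and 2, and at an unadjusted p under 0.05 6, 5 and 7, in either direction), with list medians of 0.055, 0.27 and 0.027 on the log2 scale. Of all genes 4.39% were called lower by edgeR, 12.4% by DESeq2 in either direction and 26.9% had an unadjusted p under 0.05. Without CT ob library 68 edgeR called 0, 0 and 1 (3, 5 and 7 at an unadjusted p under 0.05), with list medians of -0.091, 0.10 and -0.0078. Anapc10 was the gene that stayed called. Among all genes 14 were then called higher and 98 lower. The genes called with all libraries were Zfand5, a ubiquitin-binding partner of the proteasome, the E1 genes Uba6 and Nae1, and the APC/C subunits Anapc10 and Cdc27. Nae1, part of the E1 for NEDD8, had 214 ± 30.9 CPM (SD, n = 4) in CT db and 99.2 ± 17.7 CPM (SD, n = 3) in CT ob, or -1.10 ± 0.203 (SE, adjusted p = 0.0113 by edgeR) on the log2 scale. Anapc10 had 65.4 ± 15.8 CPM (SD, n = 4) and 30.04 ± 4.89 CPM (SD, n = 3), or -1.11 ± 0.195 (SE, adjusted p = 0.0101 by edgeR). Zfand5, Uba6 and Cdc27 had log2 differences of -0.79, -0.88 and -0.91, with edgeR adjusted p-values of 0.0226, 0.0462 and 0.0449. Among the marker lists, B2m, the light chain of class I antigen-presenting molecules, and Fshr, the receptor of follicle-stimulating hormone, were called lower in CT ob, with log2 differences of -1.35 and -1.72. B2m measured 174, 226, 623 and 551 CPM in CT db and 150, 182 and 128 CPM in CT ob, with overlapping groups. In its list of 9 genes, 4 had estimates above 0. Without library 68 the log2 differences were -0.98 for Nae1, -1.01 for Anapc10, -0.67 for Zfand5, -0.80 for Uba6 and -0.71 for Cdc27, and -1.26 and -1.81 for B2m and Fshr, and edgeR called Anapc10 alone of these 7.

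Promoters of 68 of the 84 members were found in a RefSeq table (GRCm38.p6, 250 bases before to 50 after the start). The CCAAT box (CCAAT, both strands) was in 16 of 43 proteasome promoters (37.2%) and 9 of 40 Ube2 promoters (22.5%), and in 37.4% of all 32851 promoters. The antioxidant response element core (TGACNNNGC), the kind of site bound by the proteasome gene activator NFE2L1, was in 6 proteasome and 6 Ube2 promoters (13.95% and 15%), beside 12.4% of all. The cell cycle homology region (TTTGAA) was in 4 and 4, beside 17.9% of all, and the gamma-activated site (TTCNNNGAA) in 2 and 3, beside 8.30%. A match is a description of the letters and not a bound site. The promoters of Psma3 (chr12:70974373-70974672) and Psmd14 (chr2:61711444-61711743), both lower in CT ob than in CT db, are printed 5′ to 3′ on the plus strand with the CCAAT box of either strand in capitals. The 4 promoters shown were chosen after the values were seen. Where matches on opposite strands share bases, the capitals run together.
Psma3: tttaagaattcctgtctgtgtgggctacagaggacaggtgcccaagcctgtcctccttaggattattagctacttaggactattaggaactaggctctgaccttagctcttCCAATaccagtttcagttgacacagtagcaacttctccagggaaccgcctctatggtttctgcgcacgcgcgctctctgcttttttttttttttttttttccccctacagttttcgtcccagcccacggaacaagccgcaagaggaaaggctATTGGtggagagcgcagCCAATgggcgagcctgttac
Psmd14: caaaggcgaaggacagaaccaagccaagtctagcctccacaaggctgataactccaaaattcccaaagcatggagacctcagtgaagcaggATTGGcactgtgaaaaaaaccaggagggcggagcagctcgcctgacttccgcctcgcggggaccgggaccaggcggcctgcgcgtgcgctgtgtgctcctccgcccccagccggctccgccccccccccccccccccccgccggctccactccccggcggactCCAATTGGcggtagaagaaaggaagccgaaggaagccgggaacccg
Ube2c, the highest Ube2 gene per kb, held CCAAT boxes and a cell cycle homology region (chr2:164769679-164769978, plus strand, both in capitals). Psmb6, the highest of the cutting subunits per kb, held an antioxidant response element core (chr11:70525107-70525406, plus strand, in capitals).
Ube2c: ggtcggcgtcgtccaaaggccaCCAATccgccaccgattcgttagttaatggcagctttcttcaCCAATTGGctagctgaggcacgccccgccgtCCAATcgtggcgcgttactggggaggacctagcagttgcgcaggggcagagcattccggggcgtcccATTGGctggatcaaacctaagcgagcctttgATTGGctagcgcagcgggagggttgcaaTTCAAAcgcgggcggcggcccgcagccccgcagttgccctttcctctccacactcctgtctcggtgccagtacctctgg
Psmb6: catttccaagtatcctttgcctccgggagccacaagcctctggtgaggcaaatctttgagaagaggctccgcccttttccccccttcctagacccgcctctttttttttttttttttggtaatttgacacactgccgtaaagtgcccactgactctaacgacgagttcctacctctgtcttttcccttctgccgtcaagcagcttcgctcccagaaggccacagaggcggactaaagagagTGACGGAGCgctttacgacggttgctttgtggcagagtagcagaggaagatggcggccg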

How the data were processed

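The authors deposited raw counts per gene from single reads. The study's methods name cutadapt, STAR with GRCm39 and featureCounts, while the submitters' notes list Trim Galore 0.6.2, HISAT2 2.1.0 and GRCm38, and which steps made the table was not settled. Of 55414 gene identifiers, 98.8% matched a GRCm39 annotation, which gave symbols, positions and exon lengths. All 14 columns were used, and each was assigned to a group, not to a sample, by its name. Counts were tested with edgeR 4.0.16 in R 4.3.3 (TMM, filterByExpr at its settings of 10 counts and 15 in total, quasi-likelihood test, Benjamini-Hochberg over all genes tested), and the steps were checked on simulated counts. Common dispersion, as its square root, came to 0.231 for the db model, 0.326 for the ob model and 0.286 for all libraries.

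The members and lists were chosen with earlier results of these data known. Genes named were the members called in a comparison, the 3 with the smallest p in each comparison and family, a list of catalytic, inducible, activator and well-known E2 genes, members within 20 Mb of Lepr or Lep, the extremes per kb, members at 3 counts or fewer throughout, and from the other lists those called and those with the most counts. Alternatives were DESeq2 1.42.0, other scalings and filters, other libraries in the fit, robust dispersion, downsampling and leaving out each library, and, chosen after seeing the data, a fit without the 18S gene. Protein sequences were not used here.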

Additional observations from a re-analysis of the deposited data

Results flagged for a closer look

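The values of 82 groups of 4 libraries were compared by the gap of the extreme library to its neighbour over the whole range (Dixon's test at the 95% level), and in 5 a single library lay far from the others, where chance gives about 4.10. Groups of 3 libraries were not tested. Db/db library 24 was high in Ube2b, at 296 CPM where the others had 199.7 to 206 CPM, and in Ube2a, at 94.6 CPM where the others had 84.3 to 85.3. The same library had 12.8% of its counts on the 18S gene, where the others had 1.10% to 1.98%. CT db library 75 was high in Ube2b, at 273 CPM where the others had 223 to 229 CPM. CT db library 51 had 4840714 counts in all, where the others had 3624237 to 3807338. The part of depth or of the 18S share in these values was not tested.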

How the results depend on the processing

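No paired analysis was possible because the columns carry no replicate number of the labels. Between controls, fits that each left out a single library called 0 to 6 proteasome and 0 to 6 Ube2 genes, against 4 and 5 with all of them. They called 0.850% to 9.46% of all genes, against 6.63% with all libraries. The median log2 difference then ran from 0.020 to 0.22 for proteasome and -0.28 to -0.079 for Ube2 genes between controls, -0.16 to 0.022 and -0.059 to 0.059 in the ob model, 0.0043 to 0.069 and -0.11 to -0.046 in the db model, -0.0092 to 0.076 and -0.17 to -0.062 between mutants, and -0.21 to 0.020 and 0.0083 to 0.16 for the difference of the mutant effects.

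DESeq2 called 10 proteasome and 9 Ube2 genes between controls, 1 and 1 in the db model, 1 Ube2 gene between mutants, and 2 and 1 for the difference of the mutant effects. Library totals alone gave 1 and 1 calls between controls, upper quartile scaling 5 and 3, and a fit of the control groups alone 0 and 0. Of all genes these settings called 2.07%, 6.25% and 0.0253%. With no filter on low counts, 3 Ube2 genes (Ube2u, Ube2q2 and Ube2q2l) were called by edgeR in the db model (with 270 of 28505 genes in all), 2 (Ube2u and Ube2q2l) between mutants (535 of 34753) and 2 (the same genes, 329 of 34753) for the difference of the mutant effects, with 0 members in the ob model (359 of 32006, with 3 proteasome and 2 Ube2 genes at an unadjusted p under 0.05). Between controls this setting gave 3 and 4 (1727 of 34753), with Ube2q2l and Ube2w gained and Psmd9, Ube2a, Ube2b and Ube2l3 lost. The Ube2 median of the difference of the mutant effects became 0.17. The longest transcript as length gave medians of 56.9 and 13.2 CPM per kb. The cause of these shifts was not tested. For the members called and the 3 with the smallest p in each comparison and family, 521 values under an alternative kept their direction and side of the threshold, 60 kept the direction and lost the call, 11 kept the direction and gained one, and 0 changed sign. Depth limits Ube2u, with 1 to 61 counts a library in the db model.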
